A study of Mus musculus with 8 samples.

Results

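The genes described are Omt2a and Omt2b, a pair named for oocyte maturation on mouse chromosome 9, and the Tcl1 cluster on chromosome 12, which holds Tcl1 and its relatives Tcl1b1, Tcl1b2, Tcl1b3, Tcl1b4 and Tcl1b5. They were chosen by gene symbol, as families of oocyte transcripts, with earlier results of these data known, and all 8 were found among the 37310 genes counted. RNA-seq was done on pools of 2-cell mouse embryos: 4 DKO pools, from a double knockout of Gadd45a and Gadd45b, and 4 wild-type pools. The strain was C57BL/6N, and the mothers were superovulated, naturally mated females of 3 to 4 weeks with the genotype of the group. The embryos of 1 litter, 23 to 35 of them, made up 1 pool, collected 20 h after the vaginal plug. DKO embryos came from DKO mothers, so loss of the maternal and of the embryonic gene products cannot be told apart. Gadd45a and Gadd45b are stress-response genes with known ties to cell cycle arrest and to the repair and demethylation of DNA.

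Growing oocytes make and store large amounts of RNA, on which the embryo depends until its own genome is switched on. In the mouse that handover takes place mainly at the 2-cell stage, when stored transcripts are degraded. The TCL1 proteins are small proteins that bind the pleckstrin homology domain of the kinase AKT and raise its activity; human TCL1A was found through its activation in T-cell leukaemia. Mouse Tcl1 is stored in the egg, and embryos of mothers without it divide poorly. The mouse carries several Tcl1b copies beside Tcl1. The Omt2 genes encode small proteins known mainly for transcripts that are abundant in oocytes, and their biochemical role is little described.

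The promoter sequences show how closely the Tcl1b copies are related and which letters most members have in common. Each of the 8 members had a RefSeq promoter window on GRCm38.p6, from 250 bases before to 50 bases after the annotated start, 300 bases in all. The windows were searched on both strands for the E-box form CANNTG and its narrower form CAGGTG. The other motifs searched on both strands were the TATA box TATAAA, the CCAAT box, the GC box GGGCGG, and the homeodomain forms TAATTG and, with another last base, TAATTA. E-boxes are the sites of basic helix-loop-helix proteins, a class that includes the oocyte factor FIGLA. Every CAGGTG is also counted as CANNTG. Stretches of 60 bases that hold the CAGGTG boxes closest to the start are shown for the 7 members that have one, 5′ to 3′ on the strand of the gene, with the boxes in capitals; CACCTG is the same box read on the opposite strand.
Tcl1b1, chr12:105159601-105159660, plus strand: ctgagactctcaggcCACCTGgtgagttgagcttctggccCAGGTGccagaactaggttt
Tcl1b2, chr12:105146930-105146989, plus strand: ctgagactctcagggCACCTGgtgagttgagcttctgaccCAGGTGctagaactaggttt
Tcl1b3, chr12:105190940-105190999, plus strand: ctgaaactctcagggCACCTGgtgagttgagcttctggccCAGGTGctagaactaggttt
Tcl1b4, chr12:105202319-105202378, plus strand: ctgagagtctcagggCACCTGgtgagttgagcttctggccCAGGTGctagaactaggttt
Tcl1b5, chr12:105176255-105176314, plus strand: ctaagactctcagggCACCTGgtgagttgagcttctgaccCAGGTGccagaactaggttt
Tcl1, chr12:105222726-105222785, minus strand: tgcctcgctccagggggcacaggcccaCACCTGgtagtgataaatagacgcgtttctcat
Omt2a, chr9:78314087-78314146, minus strand: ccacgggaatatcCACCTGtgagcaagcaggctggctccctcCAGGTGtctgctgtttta

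CAGGTG was present in 7 of the 8 member windows, all but that of Omt2b, and in 5413 of 27025 RefSeq promoter windows, or 20.0%. At least 2 copies were found in 6 of the 8 members and in 770 windows, or 2.85%. In the 5 Tcl1b windows the boxes stood in opposite directions with their first bases 25 apart. That arrangement was found in 7 windows, these 5 included, or 0.0259% of all. Omt2a had its closest boxes in the same opposite arrangement 29 bases apart and a further box 216 bases before the start. Tcl1 had a single box, 21 bases before the start, on the opposite strand. The Tcl1b windows are copies of each other, so their boxes are not independent of one another. Over the 10 pairs, 90.9% to 98.6% of the aligned bases were identical. The alignments covered 206 to 287 bases of the 300, and unaligned bases were left out. The broader CANNTG was in all 8 member windows and in 72.1% of all windows. None of the 8 held TATAAA, which 14.2% of all windows held, or TAATTA, held by 5.31%. TAATTG was in the window of Omt2b and in 8.15% of all windows. CCAAT was in the windows of Omt2b and Tcl1b5, and in 37.9% of all. GGGCGG was in the window of Tcl1, and in 35.9% of all. These matches describe letters in a window, and binding was not measured.

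**Figure D1:**
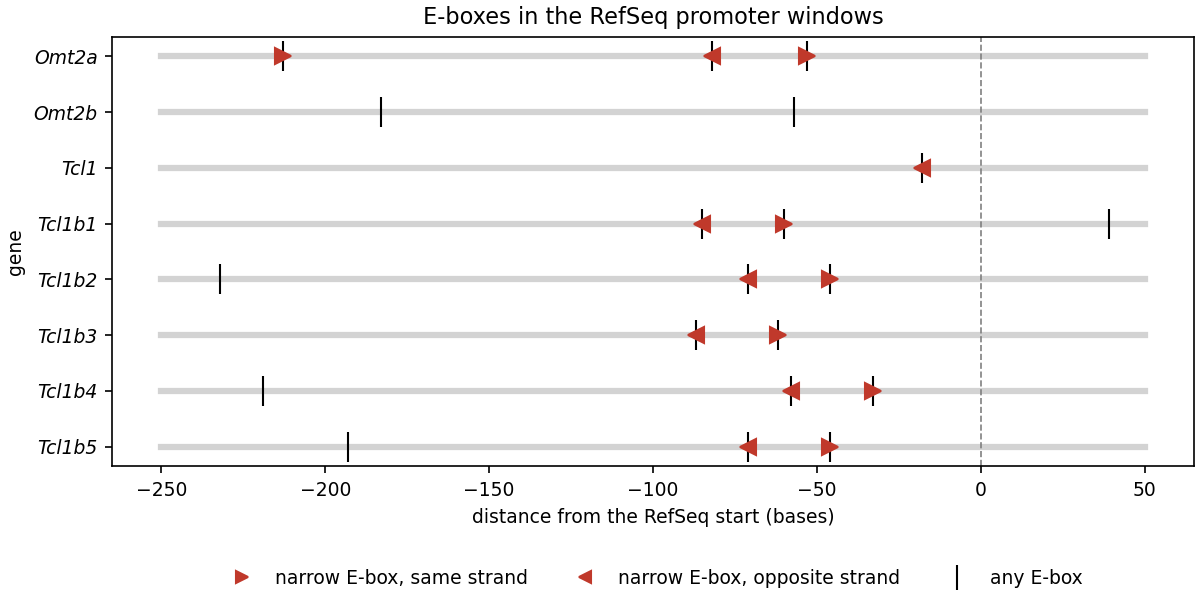
Positions of E-boxes in the RefSeq promoter windows of the 8 members, in bases from the annotated start; black bars mark the broad form and red arrowheads the narrow form, pointing along the strand it is read on. The 5 Tcl1b windows share a pair of arrowheads 25 bases apart that point away from each other, Tcl1 has 1 arrowhead, and Omt2b has none.

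The closest pairs differed between promoters and coding sequences. Tcl1b2 and Tcl1b4 had the most alike promoter windows, at 98.6% identical over 287 aligned bases, and 81.4% over their aligned coding sequences. Omt2a and Omt2b had 81.3% identical bases over their aligned coding sequences. The 10 pairs of Tcl1b copies had 72.6% to 88.4%, and Tcl1 had 65.6% to 70.5% with the Tcl1b copies. Tcl1b3 and Tcl1b5 were the closest in coding sequence, with a promoter identity of 91.3% over 206 aligned bases. Near-identical copies can exchange or lose reads, and the rule by which reads of several possible origins were counted was not stated here. Of all stretches of 85 bases, the read length, in their annotated transcripts, 29.5% for Omt2a and 27.5% for Omt2b also occurred in the other of the pair. The share was 15.1% for Tcl1b3, 10.4% for Tcl1b2, 5.77% for Tcl1b5 and 1.64% for Tcl1b1, and 0% for Tcl1 and Tcl1b4. The division of counts between Omt2a and Omt2b is therefore less certain than their sum, and no member shared such a stretch with a gene on the opposite strand.

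Stored oocyte transcripts are often governed from their 3′ ends, where a cytoplasmic polyadenylation element close to the cleavage signal sets when the tail is lengthened. The last 100 bases of a single annotated transcript per gene were searched, the one with the longest coding sequence. Only transcripts with at least 100 bases after the coding sequence were used, and other annotated ends were not searched. The element TTTTAT was found in Omt2a, Omt2b and Tcl1, and in 13.7% of 19924 genes. The same 3 members carried the common signal AATAAA, found in 63.6% of genes. Tcl1b2, Tcl1b3, Tcl1b4 and Tcl1b5 carried the variant ATTAAA, found in 19.9%. The form TTTTAAT was in no member and in 5% of genes, the AU-rich form ATTTA in Tcl1 and in 22.0%, and TGTANATA, the form read by Pumilio proteins, in no member and in 4.24%. Omt2a and Omt2b had the same 30 bases around the element, where TTTTAT runs directly into AATAAA, both shown in capitals.
Omt2a and Omt2b, 3′ end: ttttaacggTTTTATAATAAAtaaaagttt
The signal began 24 bases before the annotated end in Omt2a and 48 bases before it in Omt2b. In Tcl1 the element lay 57 bases and the signal 20 bases before the end, with 31 bases between them. Tails were not measured, and the libraries were made from polyA RNA, so an amount of RNA and the share of it with a tail cannot be told apart.

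The libraries had 21329736 to 23919114 counts, and 18433 to 20427 genes had at least 1 count. Gadd45b had 4, 14, 1 and 6 counts in DKO pools 1 to 4, against 910, 946, 1395 and 808 counts in wild-type pools 1 to 4. Gadd45a had 237, 247, 163 and 201 counts in DKO pools, against 482, 341, 502 and 468 in wild-type pools; the exons that the knockout removes are not stated in the labels. DKO replicate 1 stood apart, with a voom quality weight of 0.365 where the other libraries had 0.786 to 2.08, so member levels, shares and fold changes are given with and without it. The 8 markers of the 2-cell embryo summed to 1292 CPM in that library, the lowest of all, to 1778 to 1858 CPM in the other DKO pools, and to 1729 to 2217 CPM in wild-type pools, with wild-type replicate 4 the highest. The 7 oocyte markers summed to 8446 to 9726 CPM in DKO and 7910 to 9719 CPM in wild-type pools. Most of each sum was Dppa3, with a mean of 7953 CPM in DKO and 7796 CPM in wild-type pools. The sums therefore say little of the other oocyte markers. The 12 markers of cumulus and granulosa cells summed to 8.83 to 14.4 CPM in DKO and 9.19 to 13.4 CPM in wild-type pools, with Ptx3, Inhba, Amh and Foxl2 at 0 in every library. The 7 sperm markers summed to at most 2.37 CPM in DKO and 1.47 CPM in wild-type pools, with Smcp at 0 in every library.

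Together the 8 genes took 2.52%, 1.22%, 1.37% and 1.23% of all counts in DKO pools 1 to 4, and 0.932%, 0.908%, 1.20% and 0.690% in wild-type pools 1 to 4. The DKO mean was 1.58% ± 0.627 (SD, n = 4), or 1.27% ± 0.0839 without replicate 1 (SD, n = 3), and the wild-type mean 0.932% ± 0.209 (SD, n = 4). The Omt2 pair made up 0.825% ± 0.218 of a DKO library and 0.502% ± 0.121 of a wild-type library (SD, n = 4 each). The Tcl1 cluster made up 0.760% ± 0.410 of a DKO library and 0.430% ± 0.104 of a wild-type library (SD, n = 4 each). Without DKO replicate 1 the DKO shares were 0.716% ± 0.0301 for the Omt2 pair and 0.556% ± 0.0586 for the Tcl1 cluster (SD, n = 3). The pools are whole embryos, and shares of a library say nothing of the amount of RNA per embryo.

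Levels of different genes were compared per length, as TMM-scaled CPM per 1000 bases of annotated exon (RPKM). Omt2a had the highest level, at 3004 ± 659 RPKM in DKO and 1978 ± 410 RPKM in wild-type pools (SD, n = 4 each), rank 8 in DKO and rank 10 in wild-type among 20175 protein-coding genes. Omt2b followed at 2369 ± 617 RPKM in DKO and 1418 ± 311 RPKM in wild-type pools. Tcl1 had 1718 ± 1099 RPKM in DKO and 970 ± 282 RPKM in wild-type pools, and Tcl1b1 had 1553 ± 684 RPKM in DKO and 950 ± 164 RPKM in wild-type pools. These 4 genes were within the first 15 ranks in DKO and the first 24 in wild-type. Ranks depend on the length used. With the longest protein-coding transcript as length, the wild-type ranks were 11 for Omt2a, 8 for Omt2b, 21 for Tcl1 and 34 for Tcl1b1. Tcl1b3 stood at 935 ± 292 RPKM in DKO and 532 ± 126 RPKM in wild-type pools, and Tcl1b2 at 679 ± 377 RPKM in DKO and 450 ± 92.6 RPKM in wild-type pools. Tcl1b4 had 422 ± 164 RPKM in DKO and 248 ± 48.9 RPKM in wild-type pools. Tcl1b5 was the least abundant, with 148 ± 53.1 RPKM in DKO and 86.7 ± 14.5 RPKM in wild-type pools, rank 360 in DKO and 754 in wild-type. Its wild-type rank was 1103 with the longest protein-coding transcript as length. Without DKO replicate 1 the DKO levels were 2675 ± 58.3 RPKM for Omt2a, 2062 ± 75.9 RPKM for Omt2b, 1175 ± 201 RPKM for Tcl1 and 1215 ± 134 RPKM for Tcl1b1 (SD, n = 3), at ranks 8, 10, 21 and 19. They were 791 ± 54.1 RPKM for Tcl1b3, 491 ± 5.37 RPKM for Tcl1b2, 341 ± 33.5 RPKM for Tcl1b4 and 122 ± 5.2 RPKM for Tcl1b5 (SD, n = 3), at ranks 34, 62, 107 and 483. Tcl1 then stood below Tcl1b1 in DKO, and the order of the others was as before.

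The order of these levels was tested within pools, where the genotype and the library are shared by both genes of a pair. Each of the 7 neighbouring pairs was compared by an exact two-sided sign-flip permutation test over the 8 pools, whose smallest p is 0.00781, with Benjamini-Hochberg adjustment over the 7 pairs. The pairs and their order were taken from the mean levels of the wild-type pools, which are among the 8 pools tested, and so were not set beforehand. In 5 pairs the gene placed higher was higher in 8 of 8 pools, with an adjusted p of 0.0109 in the permutation test. Their mean log2 ratios were 0.42 ± 0.09 for Omt2a over Omt2b, 0.77 ± 0.16 for Tcl1b1 over Tcl1b3, 0.39 ± 0.26 for Tcl1b3 over Tcl1b2, 0.74 ± 0.22 for Tcl1b2 over Tcl1b4 and 1.51 ± 0.17 for Tcl1b4 over Tcl1b5 (SD, n = 8 pools). Omt2b exceeded Tcl1 by a log2 ratio of 0.59 ± 0.40 in 7 of 8 pools (exact permutation test, adjusted p = 0.0273), and the exception was DKO replicate 1. That call was lost when any of replicates 2 to 4 of either genotype was left out (exact permutation test, adjusted p = 0.0547). Tcl1 and Tcl1b1 did not differ beyond their spread, at a log2 ratio of 0.03 ± 0.27 (exact permutation test, adjusted p = 0.789). The order depends on which annotated length is used. With the longest protein-coding transcript in place of all exons, Omt2b exceeded Omt2a (log2 ratio −0.33), Tcl1 exceeded Tcl1b1 (0.43), and Tcl1b3 and Tcl1b2 stood close together (0.07).

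Between the genotypes, all 8 members had higher mean counts in DKO than in wild-type pools, and none passed the test. Of 14970 genes tested with edgeR's quasi-likelihood test, 4 had an adjusted p under 0.05, or 0.0267%, and 0 of the 8 members did. Of the knocked-out genes, Gadd45b passed, with a log2 fold change of −7.33 (adjusted p = 5.63e-07 in edgeR). Gadd45a did not pass, with a log2 fold change of −1.09 (adjusted p = 0.303 in edgeR). Of all genes 0.00668% passed with the higher level in DKO. The members were chosen with this contrast in view, so its values are a description and nothing is read from how many point one way: 8 of 8 log2 fold changes were positive, where 51.2% of all genes had a positive one. The unadjusted p was under 0.05 with the higher level in DKO for 7 members and for 5.79% of all genes, and under 0.05 in either direction for 10.2% of all genes. DESeq2 called 47 genes, or 0.314%, and limma-voom 5, or 0.0334%, with 0 members in both. The members' median log2 fold change was 0.75, and that of all genes tested 0.01. Without DKO replicate 1 the medians were 0.44 and −0.01.

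Omt2a had 5846, 3951, 3983 and 3822 CPM in DKO pools 1 to 4, against 2470, 3006, 3704 and 2413 CPM in wild-type pools 1 to 4. The genotypes did not overlap, and DKO replicates 2, 3 and 4 lay within a narrow band just above wild-type replicate 3. The log2 fold change was 0.60 with an SE of 0.19 (adjusted p = 0.469 in edgeR), and 0.43 ± 0.15 without DKO replicate 1. Omt2b had 5088, 3175, 3311 and 3078 CPM in DKO pools, against 1990, 2216, 2845 and 1720 CPM in wild-type pools. These groups did not overlap either, with DKO replicate 1 far above the rest and wild-type replicate 4 the lowest. Its log2 fold change was 0.74 with an SE of 0.20 (adjusted p = 0.469 in edgeR), and 0.53 ± 0.16 without DKO replicate 1. The count of Omt2a per count of Omt2b was 1.15, 1.24, 1.20 and 1.24 in DKO pools, and 1.24, 1.36, 1.30 and 1.40 in wild-type pools. Omt2a had more counts than Omt2b in all 8 pools, and the ratio was at its lowest in DKO replicate 1 and at its highest in wild-type replicate 4.

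Tcl1, the founding member of its cluster, had 6177, 1750, 2460 and 2291 CPM in DKO pools 1 to 4, against 2351, 1393, 2110 and 1303 CPM in wild-type pools 1 to 4. The genotypes overlapped: DKO replicates 2 and 4 lay below wild-type replicate 1, and DKO replicate 2 also below wild-type replicate 3. The DKO mean was 3170 ± 2027 CPM and the wild-type mean 1789 ± 520 CPM (SD, n = 4 each), and without replicate 1 the DKO mean was 2167 ± 371 CPM (SD, n = 3). The log2 fold change was 0.83 with an SE of 0.33 (adjusted p = 0.469 in edgeR), the highest among the members, and 0.27 ± 0.20 without DKO replicate 1. On the log2 scale that library moved Tcl1 by more than any other member.

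Tcl1b1, the most abundant of the Tcl1b copies, had 2668, 1229, 1417 and 1145 CPM in DKO pools, against 1020, 960, 1193 and 779 CPM in wild-type pools. DKO replicate 4 lay below wild-type replicate 3, and the log2 fold change was 0.71 with an SE of 0.24 (adjusted p = 0.469 in edgeR), or 0.35 ± 0.15 without DKO replicate 1. Tcl1b2 had 1564, 611, 624 and 616 CPM in DKO pools, against 649, 528, 668 and 418 CPM in wild-type pools. DKO replicates 2, 3 and 4 were nearly equal and lay below wild-type replicates 1 and 3. Its log2 fold change was 0.59 with an SE of 0.28 (adjusted p = 0.489 in edgeR), the lowest among the members, and 0.12 ± 0.15 without DKO replicate 1.

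Tcl1b3 had 1430, 781, 890 and 809 CPM in DKO pools, against 580, 559, 703 and 383 CPM in wild-type pools. Every DKO pool lay above every wild-type pool, and the log2 fold change was 0.81 with an SE of 0.22 (adjusted p = 0.469 in edgeR), or 0.57 ± 0.17 without DKO replicate 1. Tcl1b4 had 996, 548, 529 and 454 CPM in DKO pools, against 365, 353, 471 and 296 CPM in wild-type pools. DKO replicate 4 and wild-type replicate 3 were the only pools out of order. Its log2 fold change was 0.77 with an SE of 0.23 (adjusted p = 0.469 in edgeR), or 0.45 ± 0.15 without DKO replicate 1. Tcl1b5 had 240, 129, 122 and 133 CPM in DKO pools, against 103, 95.4, 98.2 and 69.1 CPM in wild-type pools. The genotypes did not overlap, and the log2 fold change was 0.77 with an SE of 0.22 (adjusted p = 0.469 in edgeR), or 0.48 ± 0.15 without DKO replicate 1.

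Every DKO pool exceeded every wild-type pool in 4 members, Omt2a, Omt2b, Tcl1b3 and Tcl1b5, and in 2.79% of all genes tested. For all 8 members the highest value was that of DKO replicate 1 and the lowest that of wild-type replicate 4. These are also the libraries with the lowest and the highest sum of 2-cell embryo markers, whose part in the members' values was not tested. Without DKO replicate 1 the members' adjusted p-values were 0.825 to 0.946 in edgeR. They are adjusted over all genes tested, and genes can share a value: Foxo3 and Btg4, not members, also had an adjusted p of 0.835 in that edgeR fit.

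**Figure D2:**
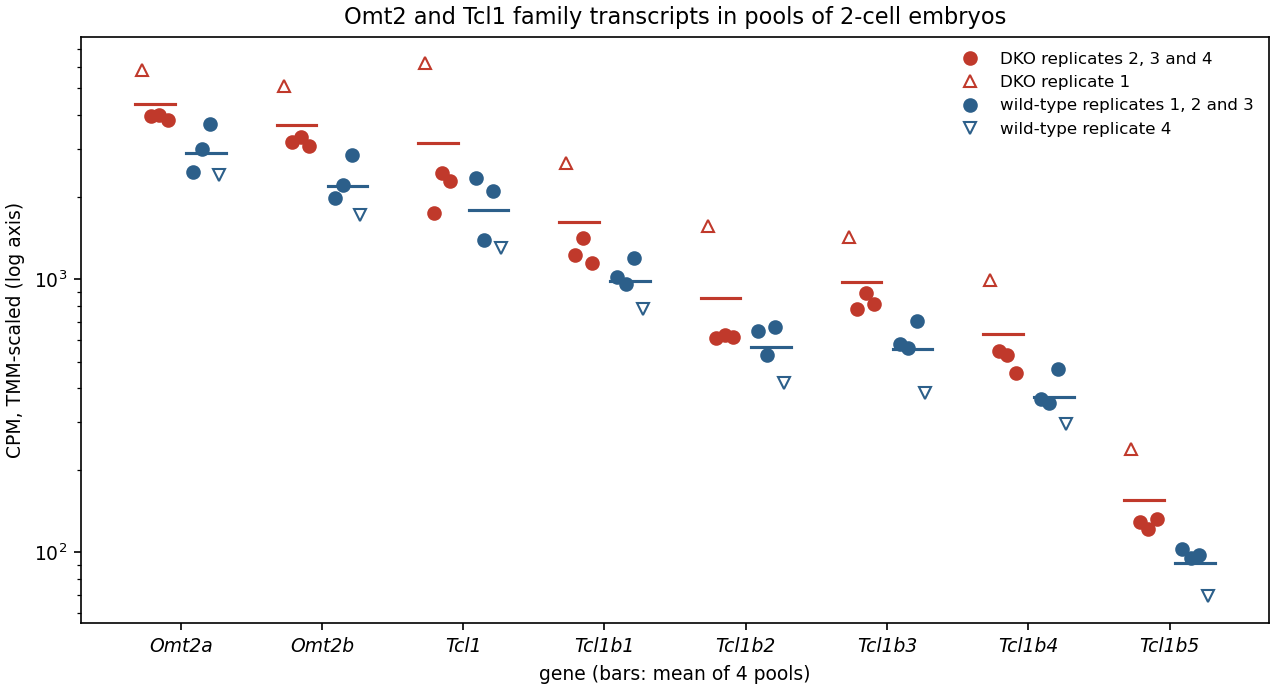
CPM of the 8 members in each pool on a log axis, with DKO pools in red left of wild-type pools in blue; bars are means of 4 pools, the open upward triangle is DKO replicate 1 and the open downward triangle wild-type replicate 4. In every gene the open triangles are the highest and the lowest value, and the remaining DKO pools span 611 to 624 CPM for Tcl1b2 and 1750 to 2460 CPM for Tcl1.

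**Figure D3:**
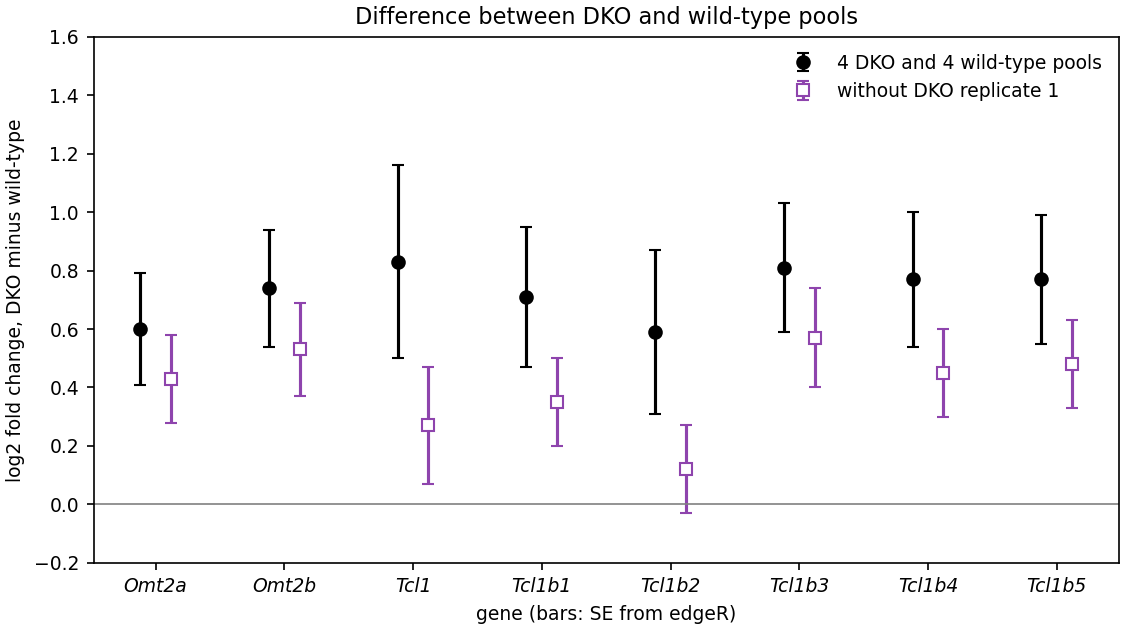
Log2 fold change of each member, DKO minus wild-type, with SE bars from edgeR, for all 8 pools (filled circles) and without DKO replicate 1 (open squares). All values are positive, and each is lower without that library, from 0.12 for Tcl1b2 to 0.57 for Tcl1b3.

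Within the Tcl1 cluster, Tcl1 gave the most counts in every pool and Tcl1b5 the fewest. Tcl1 gave 41.2% ± 5.14 of the cluster's counts in DKO and 40.6% ± 4.36 in wild-type pools, and Tcl1b1 gave 22.3% ± 1.87 in DKO and 22.9% ± 2.02 in wild-type pools (SD, n = 4 each). Tcl1b3 gave 14% ± 2.09 in DKO and 12.8% ± 1.40 in wild-type pools, and Tcl1b2 11.4% ± 0.830 in DKO and 13.0% ± 0.408 in wild-type pools. Tcl1b4 gave 8.90% ± 1.42 in DKO and 8.60% ± 0.931 in wild-type pools, and Tcl1b5 2.21% ± 0.341 in DKO and 2.12% ± 0.243 in wild-type pools. The genotypes overlapped in each of these shares except that of Tcl1b2, whose highest DKO share, 12.1%, lay below its lowest wild-type share, 12.7%. For Tcl1b3 the overlap rested on DKO replicate 1, at 10.9%, since the other DKO pools had 15.5%, 14.7% and 14.9% and the wild-type pools 11.4%, 14.4%, 13.4% and 11.8%. Without that replicate the DKO means were 39.2% for Tcl1, 22.9% for Tcl1b1, 15% for Tcl1b3, 11.2% for Tcl1b2, 9.33% for Tcl1b4 and 2.34% for Tcl1b5 (n = 3). By pool, the share of Tcl1 was 47.2%, 34.7%, 40.7% and 42.1% in DKO pools 1 to 4 and 46.4%, 35.8%, 40.2% and 40.1% in wild-type pools 1 to 4. The Omt2 pair had 0.836 counts per count of the Tcl1 cluster in DKO replicate 1 and 0.880 in wild-type replicate 1, against 1.21 to 1.41 in the other 3 DKO pools and 1.25 to 1.34 in the other 3 wild-type pools.

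**Figure D4:**
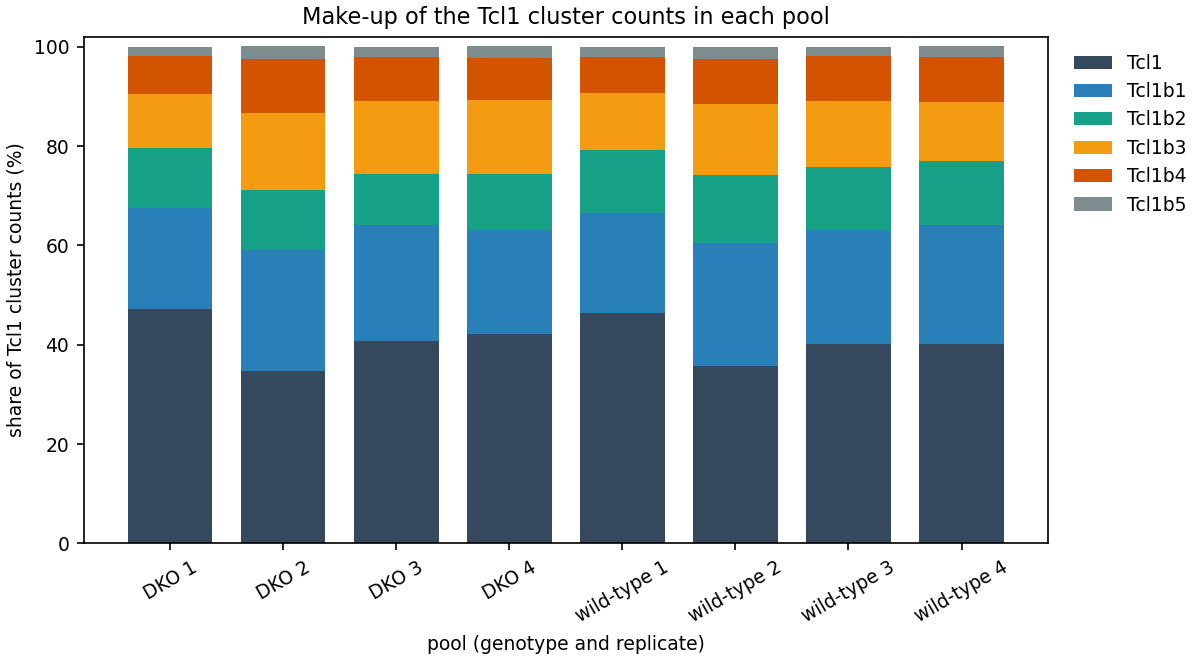
Share of the Tcl1 cluster's counts given by each of its 6 genes in each pool, DKO pools 1 to 4 left of wild-type pools 1 to 4. Tcl1 forms 34.7% to 47.2% of a DKO bar and 35.8% to 46.4% of a wild-type bar, and Tcl1b5 is the thinnest layer in every pool.

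The genes next to the members were compared to set the members beside their surroundings on the chromosome. The 5 nearest tested genes on each side of the Omt2 pair and of the Tcl1 cluster were 20 genes, of which 0 passed the test in edgeR, DESeq2 or limma-voom, with an unadjusted p under 0.05 for 1 higher and 1 lower gene. They lay 6447 to 202907 bases from the Omt2 pair and 103108 to 672684 bases from the Tcl1 cluster on GRCm38. Their log2 fold changes were positive for 12 and negative for 8, with a median of 0.02. Among all genes tested, 51.2% had a positive log2 fold change, and 10.2% an unadjusted p under 0.05 in edgeR in either direction. Beside the Omt2 pair, Fbxo9, an F-box protein gene, Ick, a kinase gene, Rn7sk, a small nuclear RNA gene, Gsta4, a glutathione transferase gene, and Gm10639 had log2 fold changes of −0.05, 0.20, 0.02, −0.41 and 0.29. Gm10639 was low, with means of 0.962 CPM in DKO and 0.783 CPM in wild-type pools and an SE of 0.83. On the other side, Dppa5a, an RNA-binding protein gene of pluripotent cells, had 133 ± 27.8 CPM in DKO and 172 ± 41.9 CPM in wild-type pools (SD, n = 4 each). Ooep, an oocyte gene of the subcortical maternal complex, had 44.3 ± 14.9 CPM in DKO and 33.4 ± 10 CPM in wild-type pools. Ddx43, a helicase gene, Cgas, a sensor of cytosolic DNA, and Gm17324 had log2 fold changes of 0.02, 0.22 and 0.35.

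Beside the Tcl1 cluster, Gsc, a homeobox gene, had a log2 fold change of 0.90 at 1.05 ± 0.748 CPM in DKO and 0.563 ± 0.461 CPM in wild-type pools (SD, n = 4 each), and Dicer1, the enzyme that makes small RNAs, had 0.06. Clmn, Syne3, a nuclear envelope gene, and Glrx5, a mitochondrial glutaredoxin gene, had −0.52, −0.20 and 0.09. Clmn was low, with means of 1.71 CPM in DKO and 2.46 CPM in wild-type pools and an SE of 0.51. Syne3 was lower still, at 0.868 CPM in DKO and 1 CPM in wild-type pools with an SE of 0.69. On the other side, Bdkrb1, a bradykinin receptor gene, had 2.82 ± 1.22 CPM in DKO and 1.5 ± 0.389 CPM in wild-type pools. Gskip, which binds the kinase GSK3B, had 95.4 ± 22.4 CPM in DKO and 133 ± 11.5 CPM in wild-type pools. Bdkrb1 was low, and its lowest DKO value and highest wild-type value were both 1.86 CPM, at 42 and 43 counts. Gskip was lower in every DKO pool than in every wild-type pool, as were 382 of the 14970 genes tested. The log2 fold changes of 0.91 for Bdkrb1 and −0.47 for Gskip did not pass the test (adjusted p = 0.48 for Bdkrb1 and 0.469 for Gskip in edgeR). Atg2b, Ak7 and Papola, an autophagy gene, an adenylate kinase gene and the nuclear poly(A) polymerase gene, had 0.01, −0.00 and −0.25.

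AKT is the kinase that TCL1 proteins bind, and 46 genes of its pathway were compared, of which 38 had enough counts to be tested. None passed the test in edgeR, DESeq2 or limma-voom; 4 had an unadjusted p under 0.05 with the higher level in DKO and 1 with the lower. Of the 38, 24 had a positive log2 fold change and 14 a negative one, with a median of 0.11, or 0.01 without DKO replicate 1. Among all genes tested 51.2% were positive. The unadjusted p in edgeR was under 0.05 for 10.2% of all genes in either direction, and for 5.79% with the higher level in DKO. Akt1 had 17.2 ± 7.09 CPM in DKO and 14.9 ± 2.77 CPM in wild-type pools, and Akt2 14.8 ± 4.21 CPM in DKO and 11.6 ± 1.31 CPM in wild-type pools (SD, n = 4 each). Mtcp1, the remaining relative of Tcl1, was too low to test, at 0.375 ± 0.390 CPM in DKO and 0.381 ± 0.319 CPM in wild-type pools.

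The smallest p-values in the AKT list belonged to a transcription factor that AKT keeps out of the nucleus, to a receptor upstream and to an AKT substrate. Foxo3, the transcription factor, had 71.6, 43.2, 46.9 and 36.4 CPM in DKO pools, against 27.5, 36.8, 33.0 and 30.1 CPM in wild-type pools. DKO replicate 4 lay just below wild-type replicate 2, and the log2 fold change was 0.64 with an SE of 0.21 (adjusted p = 0.469 in edgeR). Insr, the insulin receptor gene, had 1.69 ± 0.709 CPM in DKO and 0.472 ± 0.348 CPM in wild-type pools (SD, n = 4 each), and its log2 fold change came to 1.83 with an SE of 0.66 (adjusted p = 0.469 in edgeR). Akt1s1, an inhibitor of the mTOR complex that AKT phosphorylates, had 4.31 ± 0.165 CPM in DKO and 6.66 ± 1.78 CPM in wild-type pools (SD, n = 4 each), and its log2 fold change came to −0.63 with an SE of 0.27 (adjusted p = 0.476 in edgeR).

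Other oocyte transcripts were set beside the members. Of 57 tested, 0 passed in edgeR and in limma-voom and 2 in DESeq2, and 8 had an unadjusted p under 0.05 in edgeR, all with the higher level in DKO. Positive log2 fold changes were found for 46 and negative ones for 11, with a median of 0.22, or 0.07 without DKO replicate 1. Among all genes tested, DESeq2 called 0.314%, and 51.2% had a positive log2 fold change in edgeR. The unadjusted p in edgeR was under 0.05 with the higher level in DKO for 5.79% of all genes. Nlrp4f, a gene of the subcortical maternal complex, had 280 ± 82.7 CPM in DKO and 148 ± 28.8 CPM in wild-type pools (SD, n = 4 each), and its log2 fold change came to 0.92 with an SE of 0.21 (adjusted p = 0.394 in edgeR). Kpna7, an importin gene of the egg, had 51.2 ± 13.0 CPM in DKO and 27.8 ± 5.93 CPM in wild-type pools (SD, n = 4 each), and its log2 fold change came to 0.88 with an SE of 0.21 (adjusted p = 0.394 in edgeR). These were the genes DESeq2 called, with adjusted p-values of 0.0235 for Nlrp4f and 0.0299 for Kpna7. Btg4, which directs the deadenylation of maternal transcripts, had 4083 ± 1411 CPM in DKO and 2354 ± 803 CPM in wild-type pools (SD, n = 4 each), and its log2 fold change came to 0.79 with an SE of 0.26 (adjusted p = 0.469 in edgeR). The difference between the members and these lists was not tested.

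**Figure D5:**
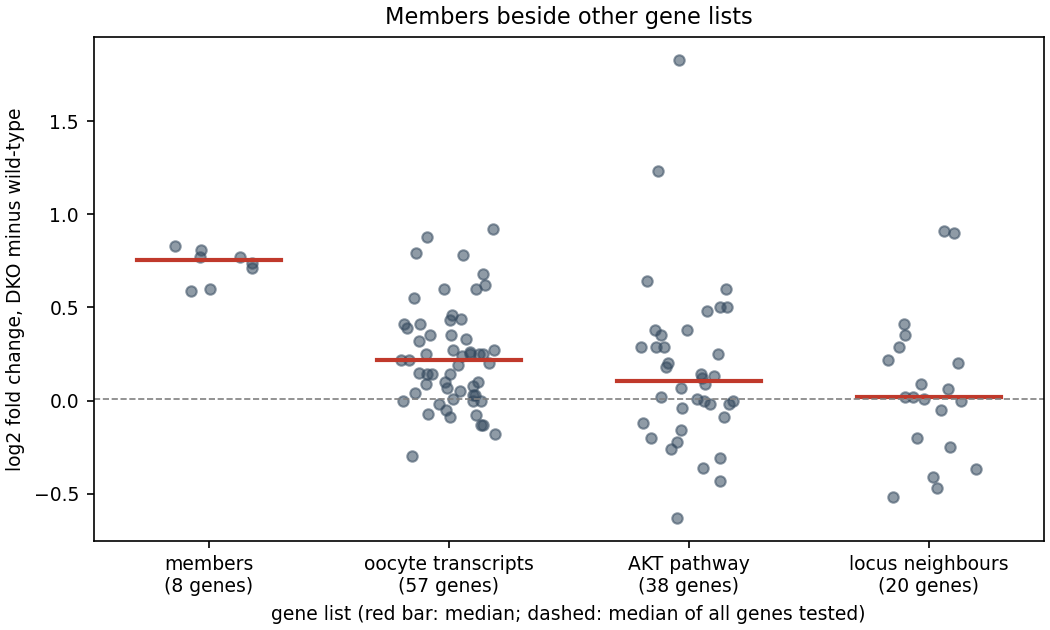
Log2 fold changes, DKO minus wild-type, of the 8 members, 57 other oocyte transcripts, 38 AKT pathway genes and 20 locus neighbours; each point is a gene, red bars are medians and the dashed line is the median of all 14970 genes tested. The members lie between 0.59 and 0.83, inside the range of the oocyte list, which runs to 0.92.

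The genes whose levels followed the members most closely over the 8 pools were ranked by Pearson's r of log2 CPM, among 10249 tested genes; these correlations are a description, since the pools share genotype, depth and the outlying DKO replicate 1. For Omt2b the closest were Dut, which removes dUTP from the nucleotide pool, with r of 0.992 over 8 pools and 0.992 over the 7 pools without DKO replicate 1, and Rab33b, a Golgi GTPase gene, with 0.992 and 0.983. Hmgcll1, a lyase gene, had 0.981, Bcar3, an adaptor gene, 0.980, and Meioc, a gene of meiotic germ cells, 0.980. Dut had 983, 723, 747 and 654 CPM in DKO pools, against 454, 503, 601 and 389 CPM in wild-type pools, the same order at the extremes as Omt2b. For the mean of the Tcl1 cluster the closest were Myl4, a myosin light chain gene at 3.98 ± 1.87 CPM in DKO and 2.13 ± 0.487 CPM in wild-type pools (SD, n = 4 each), with r of 0.993, and 0.984 without DKO replicate 1. Stk36, a kinase gene, had 0.987, Ciao2b, of iron-sulfur cluster assembly, 0.985, Trp53inp2, an autophagy gene, 0.984, and Vma21, of proton pump assembly, 0.984.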

How the data were processed

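The deposited files hold counts of reads per gene, whole numbers that the authors did not normalize, in 1 table for each of the 8 libraries. Per the labels' protocols, cDNA of polyA RNA was amplified in 11 PCR cycles with a SMART-Seq kit and the libraries in 11 more, and sequenced on 1 flow cell as single reads of 85 cycles; no step as described marks single molecules. STAR 2.5.2b, featureCounts 1.5.1 and the builds NCBIM37 and mm9 are named, per the submitters' processing notes. The settings for strand and for reads with several origins are not given in the sources used here. Of 37310 identifiers 32620 matched a symbol.

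Counts were compared with edgeR 4.0.16 in R 4.3.3 (filterByExpr, TMM, robust quasi-likelihood test, Benjamini-Hochberg, threshold 0.05) over all 8 libraries without covariates. CPM values use TMM factors; a prior count of 2 was added for log2 CPM. Alternatives were DESeq2 1.42.0, limma-voom 3.58.1 with quality weights, 3 other scalings, 2 other filters, the replicate number as a block, the log2 number of embryos as a covariate, and each library left out. The length alternative, and leaving out pools in the level order, were added after the data were seen. Exon lengths, neighbours and sequences are from GENCODE and RefSeq on GRCm38, which is newer than the build of the counts; no coordinates were converted. The edgeR and DESeq2 fits were tested on simulated counts.

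The members, lists and tests were chosen with earlier results of these data known. The genes named were the 8 members, the knocked-out genes, Akt1, Akt2 and Mtcp1, the 3 genes with the smallest p in the AKT and oocyte lists where none passed, the locus neighbours, and the 5 genes most like Omt2b and most like the Tcl1 cluster by correlation, among genes that averaged 1 log2 CPM or more and had no placeholder symbol. Some genes that fall under this rule are not reported here. Pools are separate litters; set against counting error only, which PCR without molecule tags understates, chi-square between pools of a genotype was at least 23.6 per degree of freedom, so no library was taken as deposited again, and Pearson's r across genes was 0.952 to 0.972 within a genotype.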

Additional observations from a re-analysis of the deposited data

Results flagged for a closer look

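In groups of 4 pools, a value was marked when its gap to the nearest other pool was large against the range of the group (Dixon's criterion at 95%), which chance does in about 1 group in 20. Of 118 groups examined 22 were marked, and in 18 of them the value was that of DKO replicate 1. Among the members these were Omt2a at 5846 CPM, Omt2b at 5088 CPM, Tcl1 at 6177 CPM, Tcl1b2 at 1564 CPM, Tcl1b3 at 1430 CPM and Tcl1b5 at 240 CPM. The same library stood out for the share of counts in all members at 2.52%, in the Omt2 pair at 1.15% and in the Tcl1 cluster at 1.37%, and for the low sum of 2-cell embryo markers at 1292 CPM. Among other genes it stood out for Syne3 at 2.06 CPM, Hmgcll1 at 98.0 CPM, Bcar3 at 37.6 CPM, Myl4 at 6.75 CPM, Stk36 at 32.2 CPM, Ciao2b at 134 CPM, Trp53inp2 at 111 CPM and Vma21 at 42.2 CPM. Most of these genes were picked for following the members, so they are not separate evidence about the library.

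In other libraries, wild-type replicate 3 stood apart for Gm17324 at 2.64 CPM and DKO replicate 2 for the cumulus and granulosa markers at 8.83 CPM. Erythroid markers summed to 195 CPM in DKO replicate 4, where the other DKO pools had 3.32 to 6.17 CPM, and to 152 CPM in wild-type replicate 1, where the other wild-type pools had 3.72 to 6.84 CPM. Neither library was the highest or the lowest of the 8 for any member.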

How the results depend on the processing

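Over 17 alternatives the 8 members gave 136 log2 fold changes, all positive, from 0.12 to 1.03, and 0 passed the test, with adjusted p-values of 0.0787 to 0.946. The alternatives reuse the same 8 libraries, and the members were chosen with this contrast in view, so these signs are not separate results. In the main fit 51.2% of all genes had a positive log2 fold change. The members' median was 0.44 to 0.85 when single libraries were left out, with 0.44 the value without DKO replicate 1. The count of genes called, 4 in all, was 47 with DESeq2, 7 without the low-count filter and 1 with a mean of at least 10 CPM, and the oocyte list had 2 called genes with DESeq2. RLE, upper quartile and library-size scaling moved the median of all genes by −0.01, 0.00 and 0.05. With the longest protein-coding transcript as length, Omt2a to Omt2b reversed to a log2 ratio of −0.33, Tcl1 to Tcl1b1 passed the test at 0.43 and Tcl1b3 to Tcl1b2 no longer passed at 0.07; the change of length, by construction, sets these shifts. Leaving out single pools gave 0.52 to 0.68 for Omt2b to Tcl1. Same-numbered pools of the genotypes had deviations correlated by 0.00235, 0.0174, 0.0343 and 0.078, so the replicate numbers were not taken to pair them; with a replicate block 4 genes were called, 0 of them members, and the members' median was 0.70. Only replicates 3 and 4 correlated best with their own number. Each group had 4 pools, and the common coefficient of variation between pools, over all genes, was 0.313. Why the members did not pass after adjustment over all genes was not tested.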

Other observations

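The share of Tcl1 in its cluster was close in pools with the same replicate number, at 47.2% in DKO and 46.4% in wild-type replicate 1, 34.7% in DKO and 35.8% in wild-type replicate 2, 40.7% in DKO and 40.2% in wild-type replicate 3, and 42.1% in DKO and 40.1% in wild-type replicate 4. Wild-type replicates 3 and 4 had nearly the same share, so the closeness by number rests on replicates 1 and 2. The closeness was noticed after the values were seen and was not tested; the labels do not say that a number marks a shared day or batch.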
